A study of Mus musculus with 6 samples.

Results

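The nuclear genes of the respiratory chain were read in mouse T cells with and without IL-17A. Members were the genes whose symbol starts with Nduf, Sdha, Sdhb, Sdhc, Sdhd, Uqcr, Cox4i, Cox5, Cox6, Cox7, Cox8 or Atp5, or equals Cycs or Cyc1, with at least 1 transcript typed as protein coding. That rule took 97 of the 38483 genes in the deposited table, and no measured value entered it. By complex they were 44 genes of complex I, 6 of complex II, 9 of complex III, 20 of complex IV, 16 of complex V, cytochrome c itself and Atp5l-ps1, whose symbol marks a pseudogene. The prefixes also brought in assembly factors (the Ndufaf genes, Sdhaf1, Sdhaf2 and Atp5sl), Cox7a2l, a factor that joins complexes into supercomplexes, and Atp5s, a coupling factor.

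CD4+CD62L+ T cells were taken from spleens of B10.RIII mice and cultured over 3 days in IL-6 (10 ng/ml), with IL-23 at the same dose and TGF-β at 1 ng/ml. The medium also held 10 µg/ml of anti-IFN-γ and 10 µg/ml of anti-IL-4. These conditions turn helper T cells toward the IL-17-producing Th17 type. The compared groups were IL-17A+/+ wild-type and IL-17A-/- knockout cells, with 3 libraries each, called biological replicates in the labels. Both groups share the strain and the whole culture regime, and their age, their sex and how the allele was made are not stated in the sources read. The question was whether cells that lack the cytokine differ in the RNA of their respiratory chain.

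The respiratory chain sits in the inner mitochondrial membrane. Complexes I and II pass electrons from NADH and succinate to ubiquinone, complex III passes them on to cytochrome c, and complex IV hands them to oxygen, while complexes I, III and IV pump protons. Complex V, the ATP synthase, lets the protons flow back and makes ATP. Most subunits are encoded in the nucleus and a few in the mitochondrial genome, and activated T cells are known to draw on both glycolysis and respiration. Ndufa13, also called GRIM-19, is a complex I subunit that is also known to bind STAT3, the transcription factor downstream of IL-6 and IL-23.

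Library totals ran from 47335736 to 49743762 estimated counts, and the members took between 0.967% (wild-type 3) and 1.23% (knockout 1) of them. Il17a itself was at 160.6, 211.1 and 107.8 CPM (estimated counts over a TMM-scaled library total, per 1000000) in wild-type 1 to 3 and at 1.11, 0 and 0.0202 CPM in knockout 1 to 3. Cd3e, Cd3d and Cd3g, which mark T cells, and Cd4, which marks helper T cells, were present in every library, with a summed level of 1614 to 2453 CPM. Cd4 alone was at 523.5, 579.6 and 490.5 CPM in wild-type 1 to 3 and at 245.6, 633.8 and 379.6 CPM in knockout 1 to 3. Libraries of the same replicate number resembled each other. Summed CD8 T cell markers were highest in both number 1 libraries, at 423 and 658 CPM against 71.3 to 114 CPM in the other 4. The female-specific transcript Xist was at 2.58 and 0 CPM in knockout 1 and 2 and at 567 to 664 CPM in the other 4 libraries. Genotype and these sex-linked transcripts cannot be told apart in pairs 1 and 2. The labels do not say what separates replicates beyond calling them biological, so p-values measure the spread between these 6 libraries.

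Before any comparison, the table's counting has to be seen. Many nuclear respiratory genes have processed copies elsewhere in the genome that are almost identical in sequence, and estimated counts are divided among such transcripts by a model. Of the 97 members, 32 had at least 1 other gene in the table with a transcript at least 90% identical over at least 80% of the shorter one and 150 nt. Each copy was assigned to the member it is most like, so the copies of Atp5l-ps1, which itself held 0 counts in all 6 libraries, went to Atp5l and 31 members kept a copy. For 6 of the 31, more than 50% of the joint counts lay on the copies: 99.92% for Atp5g2, 98.95% for Atp5l, 93.95% for Cox7c, 86.24% for Cycs, 78.13% for Ndufb4 and 58.24% for Ndufa12. With no minimum length the number was 9, and at 200 nt it was 5. At 150 nt, for 22 others the share was under 10%. The remaining 3 were Atp5g1 (31.59%), Cox6c (23.4%) and Ndufs5 (21.4%).

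Subunit c of the ATP synthase shows the problem in its sequence. The rotating ring of complex V is built from many copies of subunit c, and Atp5g1, Atp5g2 and Atp5g3 encode the same mature protein behind different import signals. The last 60 bases of each reading frame, stop codon included, are given from the GENCODE M21 transcripts (GRCm38), with capitals at bases that differ from Atp5g2.
Atp5g2: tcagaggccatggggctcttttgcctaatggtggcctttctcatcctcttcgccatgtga
Gm10175: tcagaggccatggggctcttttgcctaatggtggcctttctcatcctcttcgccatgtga
Atp5g1: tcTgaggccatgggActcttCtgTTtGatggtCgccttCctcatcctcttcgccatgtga
Atp5g3: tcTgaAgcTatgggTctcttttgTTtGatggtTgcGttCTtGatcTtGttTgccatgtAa
Atp5g2 lies on chromosome 15 (102662864 to 102672352, minus strand), Gm10175 on chromosome 7 (23946646 to 23947290, minus strand), Atp5g1 on chromosome 11 (96068852 to 96075670, minus strand) and Atp5g3 on chromosome 2 (73908447 to 73911326, minus strand). In this stretch Atp5g1 has 8 and Atp5g3 has 16 base differences from Atp5g2, with 0 residues changed in either. Gm10175, typed as a transcribed processed pseudogene in that annotation and as protein coding in the deposited table, has 0 base differences from Atp5g2.

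The estimated counts lay almost wholly on Gm10175. Atp5g2 held 69, 0 and 15 rounded counts in wild-type 1 to 3 and 0 in each knockout library, while Gm10175 held 15191, 17294 and 13929 counts in wild-type 1 to 3 and 16226, 16883 and 14407 in knockout 1 to 3. With the copies' counts added, Atp5g2 stood at 341, 412 and 308 CPM in wild-type 1 to 3 and at 340, 371 and 315 CPM in knockout 1 to 3. The genotypes overlapped, at 354 ± 53.17 against 342 ± 28.02 CPM (SD, n = 3). Atp5l, subunit g of the ATP synthase, had 46.3 to 199.8 counts of its own and 5891 to 9502 on copies, nearly all on Gm10221. Cytochrome c, the mobile electron carrier encoded by Cycs, had 1114 to 1731 counts of its own and 5428 to 12062 on copies, led by Gm10108.

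**Figure D1:**
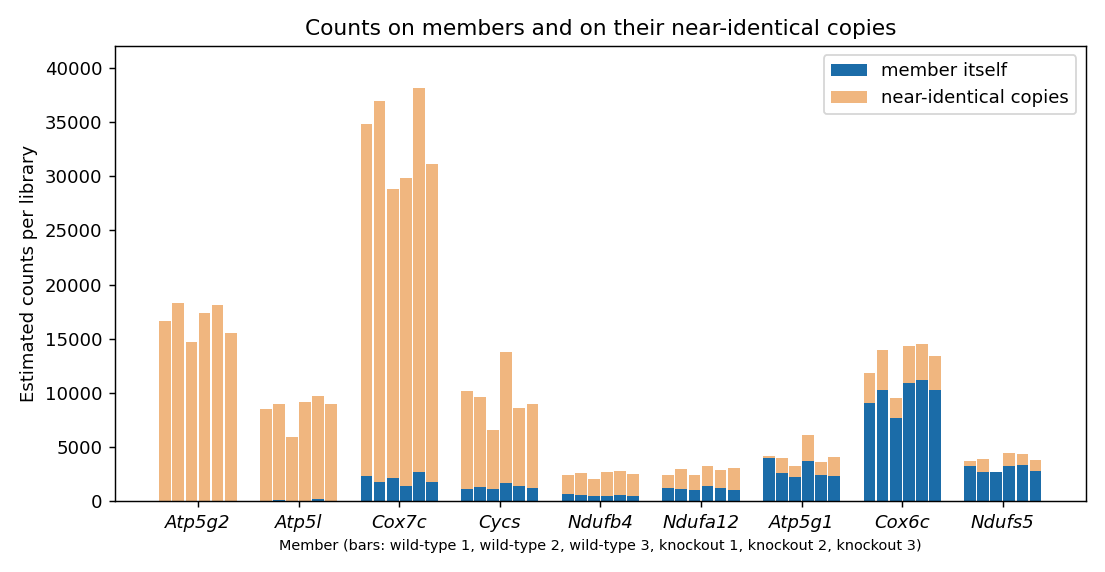
Estimated counts per library (y axis) on the 9 members with more than 20% of their joint counts on near-identical copies (x axis), with the member's own counts in blue and those of its copies in orange. Bars run from wild-type 1 to 3 and knockout 1 to 3, left to right. Atp5g2, Atp5l and Cox7c lie almost wholly on copies, while Cox6c and Ndufs5 lie mostly on their own rows.

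Levels between genes were compared only per length, as CPM per kilobase of each transcript summed over a gene. Among subunit genes that passed the filter on low counts, the median level per kilobase was 96.7 for complex I (36 genes), 119 for complex II (4), 168 for complex III (9), 263 for complex IV (11 common subunits) and 323 for complex V (14). The order of complexes is a description of these gene lists, and the ranges overlapped widely: complex I ran from 14.7 to 487 and complex V from 3.65 to 973 CPM per kilobase. Atp5b, the catalytic β subunit of the ATP synthase, was the highest member at 973 ± 206 CPM per kilobase (SD over 6 libraries). Uqcrh, the hinge protein of complex III, followed at 859 ± 123 and Cox4i1, the common form of complex IV subunit 4, at 699 ± 81.1. Atp5b was above Uqcrh in wild-type 1 to 3 and in knockout 1 and 2. In knockout 3 it was at 867 against 876 CPM per kilobase, and the difference was not tested. Atp5l at 3.65 and Cycs at 11.6 CPM per kilobase were low on their own rows. In both, most of the joint counts sat on copies, and no level per kilobase was computed with copies added. Assembly factors of complex I, which build the complex without staying in it, lay low, from 7.78 (Ndufaf7) to 42.9 (Atp5sl) CPM per kilobase.

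**Figure D2:**
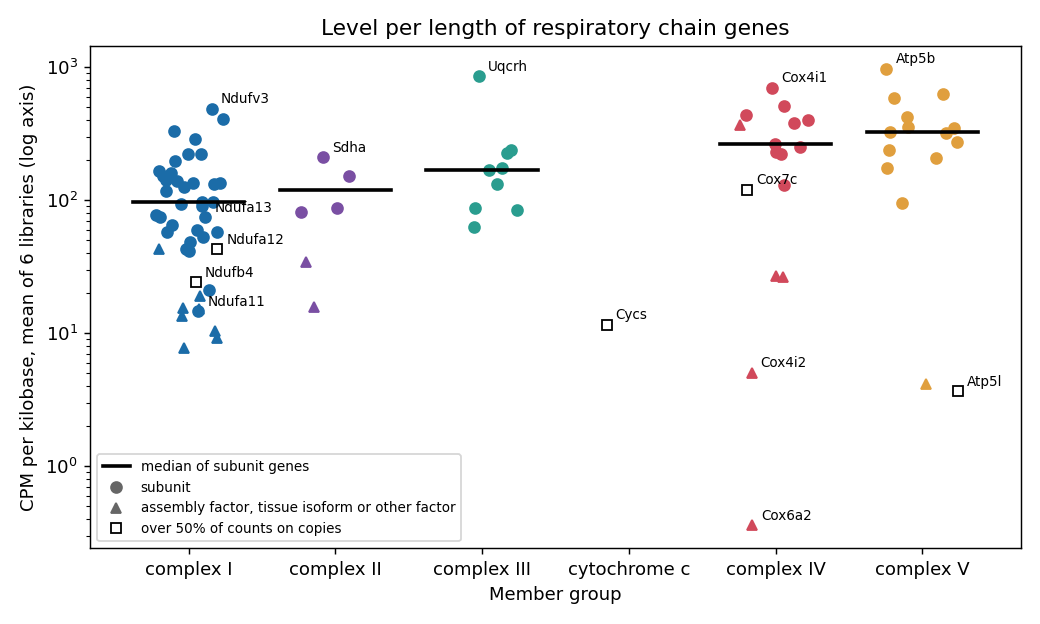
Mean level per length over 6 libraries, in CPM per kilobase on a log axis, for the 91 members that passed the filter on low counts (points), by complex. Lines mark the median of subunit genes, triangles mark assembly factors, tissue isoforms and other factors, and open squares mark the 6 members with more than 50% of their counts on copies, of which Atp5g2 is not drawn because it did not pass. Subunit medians rise from 96.7 in complex I to 323 in complex V, with overlapping ranges.

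Per-length levels depend on which transcript the counts were given to. Transcripts typed as protein coding took 77.4% to 81.6% of the members' counts per library. In 14 members more than 50% of the counts lay on transcripts of other types, among them Atp5j, a stalk subunit of the ATP synthase, with 97.2% and most of it on a 526 nt retained-intron transcript. Ndufv3, the highest complex I gene at 487 CPM per kilobase, drew most of its counts from a 483 nt coding transcript.

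Of the 97 members, 91 could be tested between genotypes. In edgeR's quasi-likelihood test without pairing, 0 of 91 passed an adjusted p of 0.05, where 0% of all 15121 genes tested passed. Il17a itself did not pass (log2 change -8.70, edgeR adjusted p = 0.9999), so a count of 0 there does not set a list apart. At an unadjusted p under 0.05, members again numbered 0, against 1.67% of all genes. DESeq2 without pairing also called 0 members, where it called 0.086% of all genes. With the replicate number as a block, edgeR called 0 members, and 3 were at an unadjusted p under 0.05 against 9.73% of all genes. DESeq2 with the same block called 1 member, Cox4i2 (adjusted p = 0.0379), where it called 2.52% of all genes. In these bulk libraries, fewer cells of a type and less RNA per cell cannot be told apart. The fitted change was upward in the knockout for 60 members and downward for 31, with a median log2 change of 0.037 against 0.013 over all genes. Changes were small: 86 of 91 (94.5%) were within 1.3-fold either way, against 77.5% of all genes. The intervals of the same fit without pairing give its precision. For 85 of 91 members (93.4%) the 95% interval lay within 2-fold either way, against 59.4% of all genes, and for 57 (62.6%) within 1.5-fold, against 30.9%. All genes were not matched to the members in level, and the median SE was 0.18 for members against 0.266 for all genes. These shares therefore do not set the members apart from other genes of like level.

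**Figure D3:**
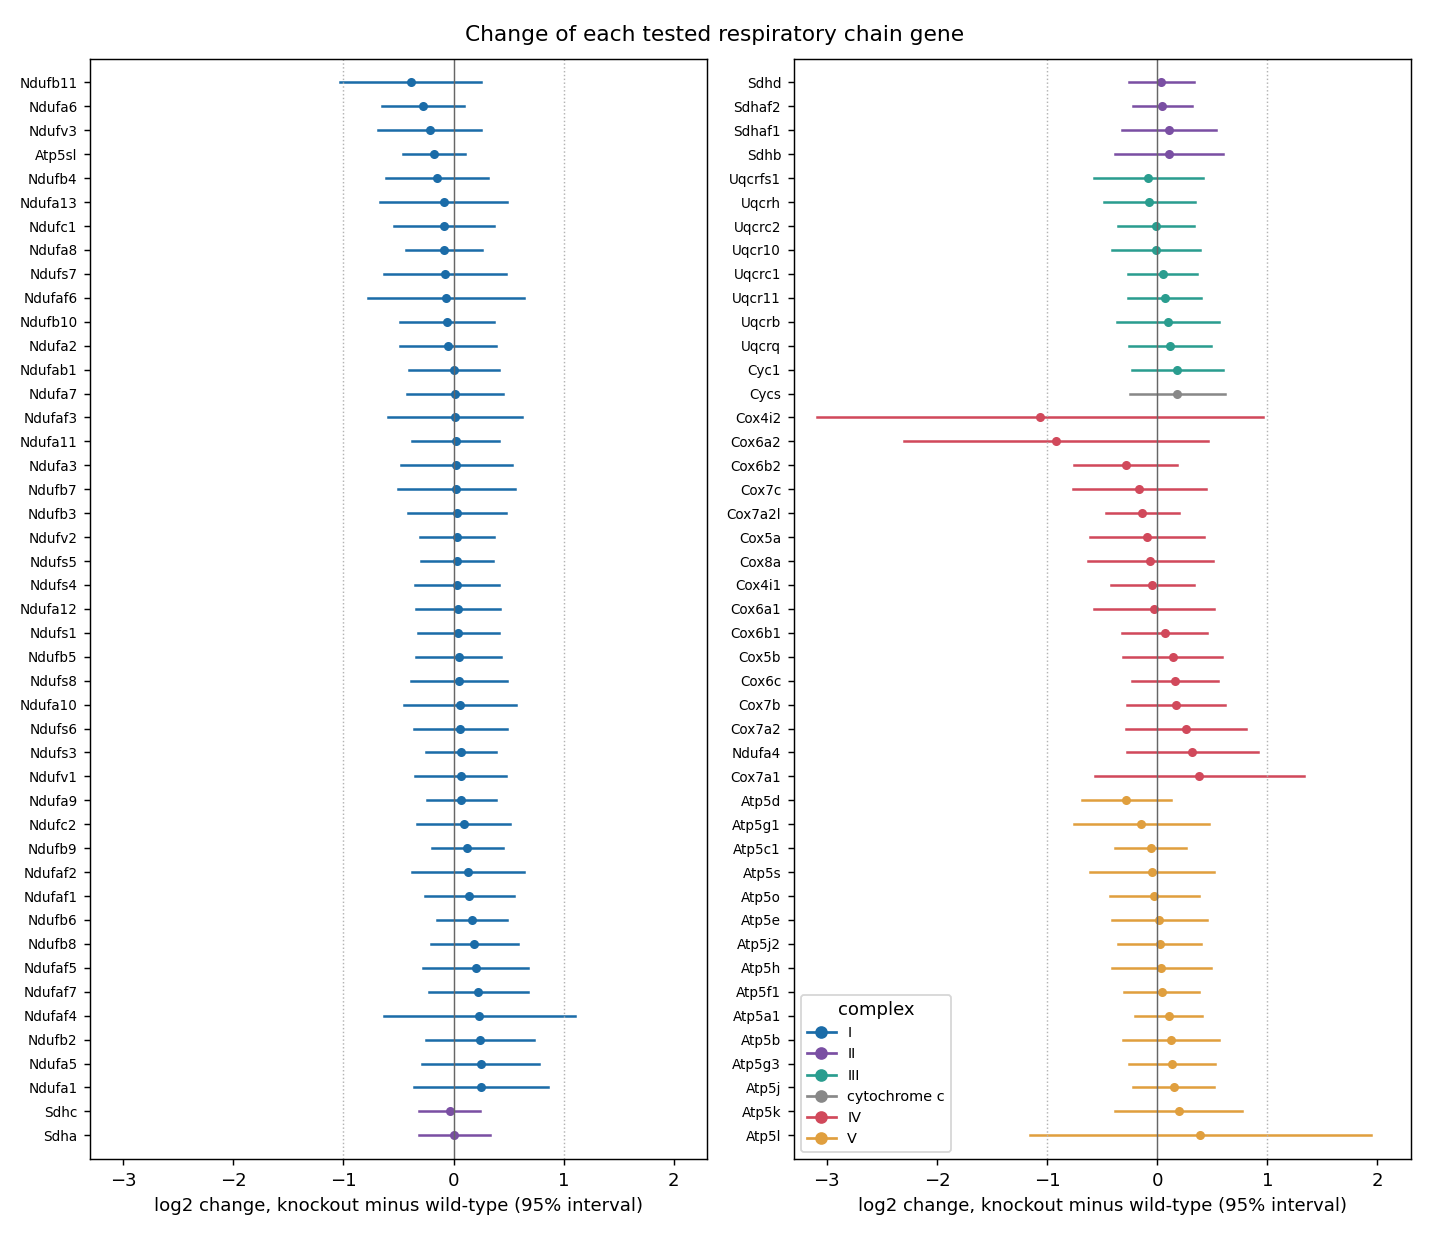
Log2 change of knockout against wild-type (x axis) with its 95% interval from the edgeR fit without pairing for 90 of the 91 tested members (y axis), coloured by complex. Dotted lines mark a 2-fold change. The interval crosses 0 for every member drawn, and Cox4i2, Cox6a2 and Atp5l have the widest.

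The direction of the median rested on which libraries were in. Without wild-type 3 the members' median turned to -0.062, and without wild-type 2 it was 0.132. Without both number 3 libraries it was -0.042, and without both number 2 libraries 0.137.

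The members varied together between libraries. Wild-type 3 held the lowest value of 58 of the 91 members (63.7%), against 19.0% of all genes, and wild-type 2 held the highest value of 41 (45.1%), against 16.5%. Relative to each gene's own mean, the members' median log2 level was -0.012, 0.184 and -0.249 in wild-type 1, 2 and 3, and 0.081, 0.020 and -0.006 in knockout 1, 2 and 3. The same medians over all genes lay between -0.016 and 0.018. Summed over the members, the wild-type libraries spanned 9747 to 12749 CPM and the knockout libraries 11061 to 11782 CPM, so the knockout range lay inside that of the wild-type. Other lists moved with wild-type 3. The 13 proteins of the mitochondrial genome had their lowest sum there, 17030 CPM against 18603 to 25449 CPM in the other libraries, a median deviation of -0.333, and 10 of the 13 had their lowest value there. All 7 lists of cell type markers also had their lowest sum in wild-type 3. It was 1614 CPM for T cells, 71.3 CPM for CD8 T cells, 50.1 CPM for B cells, 57.8 CPM for NK cells and 14.9 CPM for myeloid cells, the last against 26.6 to 185 CPM in the others. In libraries 1 to 3, B cell sums were 202, 73.2 and 50.1 CPM for wild-type against 450, 180 and 53.6 CPM for knockout. All 5 B cell genes had upward fitted changes (median log2 change 1.22), with 0 called by edgeR and 3 by blocked DESeq2. That blocked fit also called Cd8a upward (0.678, adjusted p = 0.000702) but not Cd8b1 (0.328, 0.138). Among the 5 myeloid genes blocked DESeq2 called 2 upward, Itgam (0.921, adjusted p = 0.015) and Mpeg1 (1.219, 0.00023). Of those 5, 4 had upward fitted changes and 1 a downward one. Among the 3 NK genes it called 1 upward, Klrd1 (0.675, adjusted p = 0.00426). Of the 4 T cell genes 0 were called, and their sum was lower in knockout 1 than in wild-type 1. The part of these cell types in the result was not tested.

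**Figure D4:**
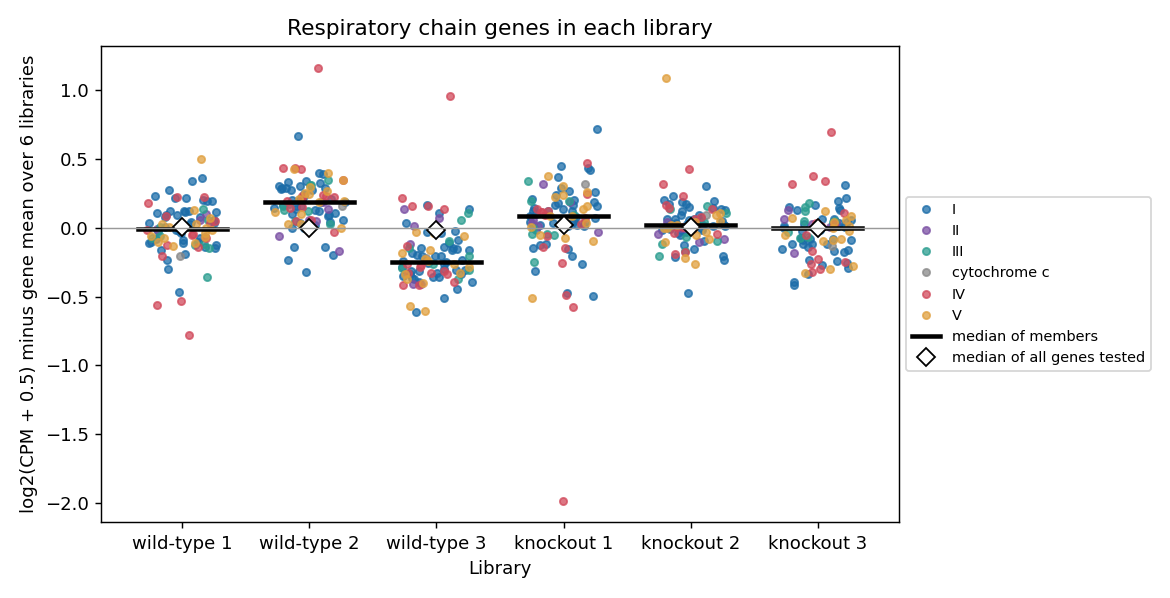
Log2(CPM + 0.5) of each tested member minus its mean over 6 libraries (y axis), by library (x axis), coloured by complex. Black lines give the members' median, which is 0.184 in wild-type 2 and -0.249 in wild-type 3, and diamonds give the median of all genes tested, which stays near 0 in all 6 libraries.

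By complex, the median deviation in wild-type 3 was -0.247 for complex I, -0.205 for complex III, -0.279 for complex IV and -0.263 for complex V. For complex II, with 6 genes, it was -0.054, and no difference between complexes was tested. The genes of complex II went both ways. Sdhb, Sdhaf1 and Sdhaf2 had their lowest value in wild-type 3, which is 3 of 6 (50%) against 63.7% of all tested members. Sdha, the flavoprotein of complex II and also a citric acid cycle enzyme, ran the other way, with its highest value in wild-type 3 (246 CPM) and its lowest in wild-type 2 (200 CPM). Over the 6 libraries, 64 of 91 members had a Pearson r above 0.5 with the members' own mean (70.3%), against 18.7% of other genes, a description over 6 libraries that share depth and preparation and to which each member itself contributes. Sdha at -0.842 and Sdhd, a membrane anchor of complex II, at -0.569 were the most opposed, while Sdhb was at 0.865, Sdhaf1 at 0.896 and Sdhaf2 at 0.918.

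Complex I, which oxidises NADH, had 44 tested genes, of which 0 were called, 32 lay higher and 12 lower in the knockout, with a median log2 change of 0.036. Its 7 core subunits, which carry the flavin and iron-sulfur clusters, had log2 changes from -0.08 (Ndufs7) to 0.065 (Ndufs3 and Ndufv1). Among the 29 accessory subunits, which surround the core, Ndufb11 had the lowest change and Ndufa6 the smallest p. Ndufb11 was at 114, 224 and 158 CPM in wild-type 1 to 3 and at 99.5, 132 and 147 CPM in knockout 1 to 3, a log2 change of -0.39 (95% interval -1.03 to 0.25). Ndufb11 lies on chromosome X, and its log2 ratios were -0.199, -0.762 and -0.103 in pairs 1 to 3. Xist was at 2.58 and 0 CPM in knockout 1 and 2, so genotype and sex-linked differences cannot be told apart in those pairs. Ndufa6 was at 214, 225 and 173 CPM against 148, 183 and 173 CPM, a change of -0.28 (interval -0.65 to 0.10; edgeR unadjusted p = 0.122, adjusted p = 0.9999). The groups overlapped in both genes.

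Ndufa13 (ENSMUSG00000036199, chromosome 8, 69894188 to 69902558, GRCm38) was not called between genotypes by edgeR or DESeq2, with or without the block. It was at 109, 107 and 68.6 CPM in wild-type 1 to 3 and at 98.3, 102 and 67.4 CPM in knockout 1 to 3. Both number 3 libraries were low, while libraries 1 and 2 of each genotype lay nearer each other than their same-numbered partners. The means were 94.95 ± 22.8 and 89.2 ± 19.0 CPM (SD, n = 3), and the log2 change was -0.09 (SE 0.242, 95% interval -0.66 to 0.49). An exact two-sided permutation test gave p = 0.5, where 3 against 3 libraries cannot go below 0.1. Within pairs of the same number it was lower in the knockout in 3 of 3, with log2 ratios of -0.15, -0.071 and -0.026, and edgeR with the replicate block gave -0.083 (SE 0.091, adjusted p = 0.792). Being lower in every pair held for 7 of the 91 members (7.7%), against 16.7% of all genes. In the fit without pairing, the sign turned without wild-type 1 (0.023), wild-type 2 (0.009) or knockout 3 (0.055), each of which leaves a pair incomplete. Per length it ranked 61 of 91, at 74.1 ± 15.3 CPM per kilobase (SD over 6 libraries) against a median of 129 over tested members. The table gives it 1 transcript of 1243 nt, and RefSeq places its start 538 nt further downstream on the minus strand, at 69902020, so the length may be overstated. Stat3, the partner, was at 677, 674 and 1105 CPM in wild-type 1 to 3 and at 1027, 621 and 877 CPM in knockout 1 to 3, a log2 change of 0.04 (SE 0.269).

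The 8 assembly factors of complex I had a median change of 0.138, with 6 higher and 2 lower and 0 called. Atp5sl (ENSMUSG00000057229, chromosome 7, 25619414 to 25625551), which later nomenclature places among complex I assembly factors despite its ATP synthase name, was at 63.4, 59.6 and 64.3 CPM in wild-type 1 to 3 and at 52.5, 59.0 and 54.1 CPM in knockout 1 to 3. All knockout values lay under all wild-type values. Such separation held for 2 of the 91 members (2.2%), the other being Cox6a2, against a background of 6.14% of all genes. The change of Atp5sl was -0.18 (95% interval -0.46 to 0.10; edgeR unadjusted p = 0.177). Ndufaf4 had the widest interval of the group, from -0.64 to 1.10.

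Complex II, the succinate dehydrogenase, had the narrowest range of changes of the 5 complexes. Sdha was at 227, 200 and 246 CPM in wild-type 1 to 3 and at 230, 212 and 235 CPM in knockout 1 to 3, a log2 change of 0.008 (95% interval -0.31 to 0.33). Sdhc, a membrane anchor, was at 104 ± 2.43 CPM in the wild-type and 101 ± 5.45 CPM in the knockout. Sdhb, the iron-sulfur subunit, spread more, from 69.3 to 105 CPM in the wild-type and from 81.3 to 115 CPM in the knockout. All 6 genes of the complex, the assembly factors Sdhaf1 and Sdhaf2 included, had log2 changes between -0.034 and 0.109.

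Complex III had 9 tested genes, with 5 higher and 4 lower and changes from -0.081 to 0.184. Its smallest p was that of Cyc1, cytochrome c1, at 95.1, 113 and 86.0 CPM in wild-type 1 to 3 and at 131, 95.5 and 107 CPM in knockout 1 to 3 (log2 change 0.18, 95% interval -0.23 to 0.60). Uqcrc1, a core protein, was at 102 ± 4.81 against 106 ± 11.3 CPM. Uqcrh was at 445, 532 and 350 CPM against 415, 409 and 440 CPM, so the wild-type libraries alone spanned more than the difference between genotypes. Cycs with its copies added was at 210, 218 and 137 CPM in wild-type 1 to 3 and at 270, 177 and 181 CPM in knockout 1 to 3, a change of 0.153 (SE 0.248).

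Complex IV, cytochrome c oxidase, had 16 of its 20 genes tested. The 11 common subunits had log2 changes from -0.161 (Cox7c) to 0.320 (Ndufa4), and 0 were called. Ndufa4, named for complex I but now counted with complex IV, was at 41.8, 78.6 and 49.0 CPM in wild-type 1 to 3 and at 65.9, 65.3 and 80.2 CPM in knockout 1 to 3. Knockout 1 and 2 lay within the wild-type range and knockout 3 just above it. Cox7c, a small membrane subunit, was at 44.0 ± 3.84 against 39.4 ± 14.1 CPM on its own row and at 717 ± 115 against 664 ± 103 CPM with its copies, chiefly Gm12338. Its own row lay 82.4% on a 315 nt non-coding transcript, and on coding transcripts alone its change turned to 0.703 (edgeR unadjusted p = 0.0317, not past the threshold after adjustment). Cox7a2l was at 447, 440 and 360 CPM against 358, 396 and 381 CPM, a change of -0.14 (95% interval -0.47 to 0.20).

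Tissue isoforms of complex IV subunits, which replace common forms in lung, muscle, heart or testis, were low or at 0. Cox7b2, Cox8b and Cox8c held 0 counts in all 6 libraries, which allows up to 0.0676 CPM in a library, and Ndufa4l2 held at most 4. Per length, Cox7a1, the muscle form of subunit 7a, and Cox6b2, the testis form of subunit 6b, led them at 26.9 and 26.4 CPM per kilobase. Cox7a1 was at 8.497 ± 2.94 CPM in the wild-type and 11.1 ± 4.42 CPM in the knockout, and Cox6b2 at 13.9 ± 0.809 and 11.4 ± 2.16 CPM. Cox6a2, the heart and muscle form, was at 0.246, 0.361 and 0.313 CPM in wild-type 1 to 3 and at 0.156, 0.205 and 0.121 CPM in knockout 1 to 3. The genotypes did not overlap, but the log2 change of -0.92 had a 95% interval of -2.30 to 0.46.

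Cox4i2 (ENSMUSG00000009876, chromosome 2, 152754173 to 152765037) was the one member that any fit of all 6 libraries called. It encodes the form of subunit 4 known from lung and from the response to low oxygen. It was at 1.83, 7.01 and 5.996 CPM in wild-type 1 to 3 and at 0.352, 3.01 and 3.74 CPM in knockout 1 to 3. Knockout was the lower of each same-numbered pair, and the groups overlapped through wild-type 1. Without pairing, the log2 change was -1.06 (SE 0.854, 95% interval -3.09 to 0.96; edgeR adjusted p = 0.9999). DESeq2 with the replicate number as a block gave -1.37 (SE 0.411, adjusted p = 0.0379), a fit in which 2.52% of all genes were called, 1.5% lower and 1.02% higher. edgeR with the same block gave -1.36 and an adjusted p of 0.394. In the blocked DESeq2 fit the change was -0.94 without replicate 1 (adjusted p = 0.628), -1.49 without replicate 2 (0.382) and -1.77 without replicate 3 (0.226), so the direction was kept and the call was lost each time. Without replicate 2, that fit called 3 members, where it called 1.73% of all genes: Ndufa4 (0.67) and Cox7a2 (0.57), both higher, and Atp5g2, lower, whose counts are divided with Gm10175. The low values of Cox4i2 lay in the number 1 libraries, where CD8 T cell markers were highest, and the part of that in the result was not tested. Cox4i1, the common form, was at 420, 463 and 329 CPM in wild-type 1 to 3 and at 380, 398 and 399 CPM in knockout 1 to 3, and per kilobase stood at 699 against 5.02 for Cox4i2.

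**Figure D5:**
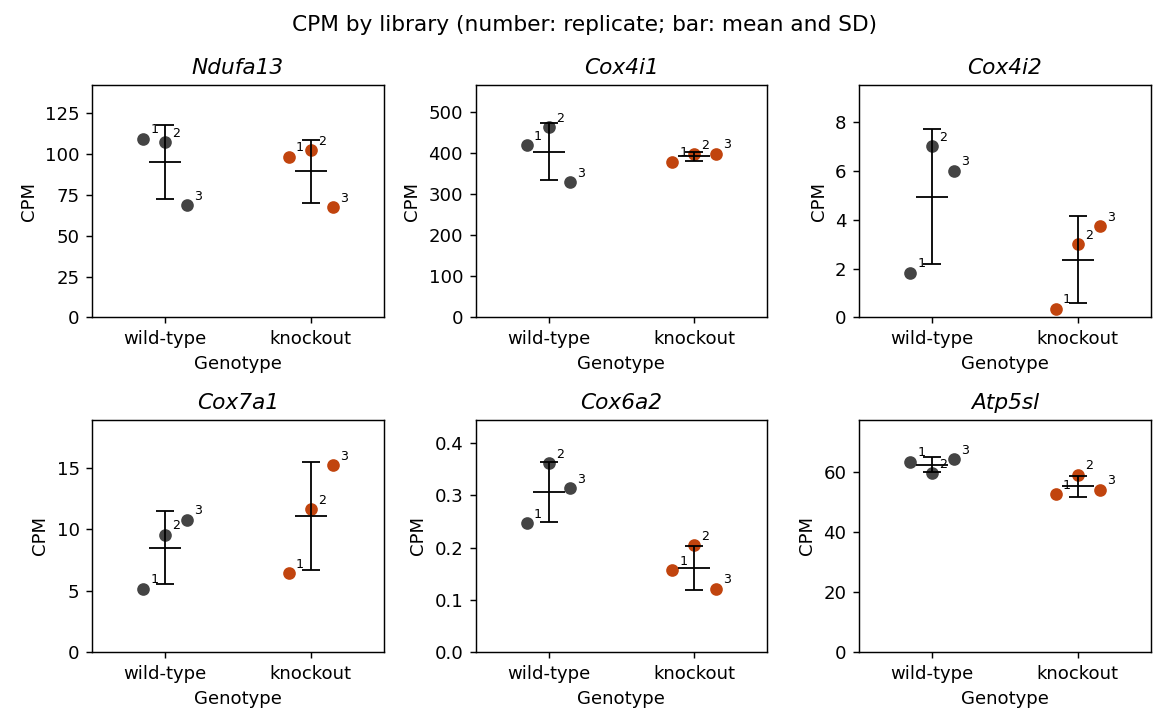
CPM in each library (points, numbered by replicate) with mean and SD (bars) for 6 members, by genotype. Ndufa13 is low in both number 3 libraries, and Cox4i2 is lower in the knockout of each pair with overlapping groups. Only Cox6a2 and Atp5sl of the 6 have groups that do not overlap.

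Complex V, the ATP synthase, had 15 of 16 genes tested, with 10 higher and 5 lower and 0 called. In the F1 head, which makes ATP, Atp5b was at 887, 916 and 804 CPM in wild-type 1 to 3 and at 1168, 751 and 925 CPM in knockout 1 to 3. Knockout 1 was the highest library and knockout 2 the lowest, so the knockout range enclosed that of the wild-type. Atp5d, the δ subunit of the central stalk, was at 263, 330 and 240 CPM in wild-type 1 to 3 and at 238, 249 and 199 CPM in knockout 1 to 3. Its change was -0.28 (95% interval -0.69 to 0.13), and under the replicate block edgeR gave an adjusted p of 0.505 and DESeq2 of 0.174. Among the membrane and stalk genes, Atp5h was at 306 ± 69.7 against 314 ± 20.7 CPM, and Atp5g3 at 219 ± 34.2 against 240 ± 23.7 CPM. Of the subunit c genes on their own rows, Atp5g3 was the highest per length, at 319 CPM per kilobase. Atp5g1 was at 62.8 ± 18.3 against 56.8 ± 13.5 CPM on its own row, a change of -0.15. With its copies added the change turned to 0.181 (SE 0.215), and neither value was called.

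Genes outside the rule that serve the same pathway were read the same way. The mitochondrial genome encodes 13 proteins of complexes I, III, IV and V. Of these, 11 lay higher and 2 lower in the knockout, with a median log2 change of 0.158 and 0 called in edgeR. mt-Nd4l, a complex I subunit, was at 77.4, 56.8 and 42.1 CPM in wild-type 1 to 3 and at 11.9, 12.0 and 24.5 CPM in knockout 1 to 3. All knockout values lay under all wild-type values, and the log2 change was -1.87 (SE 0.361; edgeR adjusted p = 0.9999). DESeq2 called it lower both without the block (adjusted p = 0.00154) and with it (7.19e-07), while edgeR with the block gave -1.91 and an adjusted p of 0.366. Blocked DESeq2 gave -1.50 without replicate 1 (adjusted p = 0.000193), -1.76 without replicate 2 (0.512) and -2.49 without replicate 3 (1.38e-20), so the call was lost without replicate 2 only. Its message is known to be shared with mt-Nd4, which was at 652 ± 95.5 against 680 ± 37.1 CPM, a change of 0.06. DESeq2 with the block also called mt-Nd3, another complex I subunit, higher, at 0.54 (SE 0.124, adjusted p = 0.00178). Neither gene was chosen by the rule for named genes; they were the only ones of the 71 tested genes on these lists that DESeq2 called with all 6 libraries. With the block they are 2.82% of the 71, against 2.52% of all genes.

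In edgeR 0 genes were called in each of the other pathway lists, where it called 0% of all genes. Blocked DESeq2 also called 0 in each, against 2.52% of all genes. A list of 31 further genes held mostly assembly factors, which insert copper, heme or iron-sulfur clusters or join subunits. It also held Atpif1 and Usmg5, which belong with the ATP synthase but are not assembly factors. Of the 31, 20 lay higher and 11 lower (median 0.080). Of 13 tested regulators of respiratory genes 7 lay higher and 6 lower (median 0.025). Ppargc1a, the coactivator known for mitochondrial biogenesis in muscle and fat, held at most 0.0209 CPM in any library and was not tested. Nrf1, a transcription factor of many respiratory genes, was at 34.8 ± 2.34 against 34.1 ± 3.70 CPM. Of 13 citric acid cycle genes 8 lay higher and 5 lower (median 0.043).

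Promoters of members were described as sequence, and no motif was compared with the library pattern that most members shared. RefSeq windows from 250 bases before to 50 after the start site (GRCm38.p6) were at hand for 79 members, 85 windows in all, and 12 motifs were searched on both strands. The full NRF1 palindrome, shown in capitals in the stretches that follow, was in 8.2% of member windows and 0.97% of all 32851 windows, and its core GCATGCG, which lies within it, in 16.5% and 3.58%. The ETS motif CCGGAAG, read by GABP among others, was in 22.4% and 8.86%. The long form of the YY1 motif was in 8.2% and 0.85%, and its core AAGATGG, which lies within it, in 15.3% and 6.34%. The cAMP element TGACGTCA was in 5.9% and 1.79%, the E-box CACGTG in 10.6% and 7.15%, the ERR motif TCAAGGTCA in 2.4% and 0.42%, and the hypoxia core GCGTG in 56.5% and 32.39%. The GC box GGGCGG was in 44.7% and 35.66%, CCAAT in 43.5% and 37.41%, and TATAAA in 9.4% and 13.62%. Mean GC content was 58.1% in member windows and 53.8% in all, and GC-rich motifs are more frequent by composition in such windows. A match is not a site of binding, which was not measured here.

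Of the 7 members with the full NRF1 palindrome, 5 carry it before the start site, and 30 bases are printed to show the match within its flanks. Capitals mark the palindrome, which is the same in each because the search required it, and strands follow the gene.
Atp5g2, chr15:102671070-102671099, minus strand: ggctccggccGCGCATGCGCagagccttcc
Atp5k, chr5:108434430-108434459, minus strand: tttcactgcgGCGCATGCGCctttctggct
Cox6a1, chr5:115349101-115349130, minus strand: caggaacgggGCGCATGCGCgctctcgctc
Ndufa11, chr17:56717692-56717721, plus strand: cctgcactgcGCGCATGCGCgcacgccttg
Ndufaf4, chr4:24897960-24897989, plus strand: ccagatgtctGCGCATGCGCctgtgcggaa
The palindrome lay 42, 50, 162, 60 and 113 bases from the start site in these genes, in the order printed. These 5 genes include an ATP synthase ring gene, a complex IV subunit and a complex I assembly factor. Of the 4 that could be tested, 0 were called by edgeR or blocked DESeq2. Those fits called 0% and 2.52% of all genes, so a count over 4 genes says nothing about the motif.

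The genes whose level over the 6 libraries was most like the members' mean were Gm12481 (Pearson r = 0.994), Zcrb1 (0.992), Gm10020 (0.990), Shfm1 (0.989) and Tcrg-V5 (0.986), chosen from all genes by that value and given as a description over 6 libraries. Gm12481 was at 583, 663 and 483 CPM in wild-type 1 to 3 and at 618, 595 and 567 CPM in knockout 1 to 3. Gm10020 and Tcrg-V5 were at 1.58 CPM or less in every library, so their likeness rests on few counts.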

How the data were processed

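Stranded mRNA libraries of 6 cultures were sequenced, per the labels' protocols. The authors deposited estimated counts (expected counts) for 93480 transcripts, with transcript length and GC content as a fraction per the file headers. Per the submitters' processing notes, the tools were Bowtie2 2.1.0 and eXpress 1.3.1 and the build GRCm38. For the annotation release and the counting settings the sources read give nothing.

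Counts were summed per gene and rounded. edgeR 4.0.16 (TMM scaling, filterByExpr, quasi-likelihood test, no block, Benjamini-Hochberg over 15121 genes, threshold 0.05; R 4.3.3) compared all 6 libraries. DESeq2 1.42.0 and limma 3.58.1 served as alternatives. Each of these tools and edgeR, with and without the block, was tested on simulated data. Fits with other settings, libraries left out or copies added were not. CPM used TMM-scaled totals, and log2 deviations used an offset of 0.5. Counting floors are 3 counts and cover counting error only. In the blocked DESeq2 fit, 880 genes had no adjusted p, among them 1 member.

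Deviations from group means correlated at 0.483, 0.328 and 0.491 between same-numbered libraries and at -0.125 to -0.365 otherwise. By the rule that all same-number values exceed 0.1, same-numbered libraries were treated as pairs in the blocked fits and pair ratios. The main fit and its intervals left the pairing out. Common dispersion in edgeR was 0.169 without the block and 0.0601 with it. Chi-square per degree of freedom between libraries was 55.8 or more, so no library was a duplicate.

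Copies were found with blastn 2.17.0 on GENCODE M21 transcripts. The alignment minimum was set after the hits were seen: with none, 33 members were assigned a copy, at 200 nt 29, and at the 150 nt used 31. The 200 nt minimum dropped the copy of Cox7c (0.87% against 93.95% of joint counts). CPM per kilobase replaced TPM after short non-coding rows were seen to distort TPM. The bounds of 2-, 1.5- and 1.3-fold, used to describe changes and intervals, were also set after values were seen.

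Named genes were Ndufa13, the subunit c genes, tissue isoforms, members called by any fit of all 6 libraries, in each role the highest and lowest per length and the smallest p, and the 5 genes most like the members; some single-gene values are not reported here. Members and lists were chosen with earlier results of these data known.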

Additional observations from a re-analysis of the deposited data

How the results depend on the processing

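Fold changes here are log2, knockout minus wild-type. Called genes among all tested numbered 0 in edgeR and limma-voom, with or without the replicate block, with RLE scaling, unscaled totals, no low-count filter or coding transcripts only, against 13 in DESeq2 and 381 in DESeq2 with the replicate block. Leaving libraries out gave 0 to 264 over all fits, the upper values in blocked DESeq2. Called members numbered 1 (Cox4i2) in blocked DESeq2 and 0 to 3 with libraries left out. Called genes on the pathway lists numbered 1 in DESeq2, 2 in blocked DESeq2 and 0 to 2 with libraries left out. Adding near-identical copies, an alternative chosen after seeing the data, left 0 members called in edgeR, and with DESeq2 and the replicate block gave 381 genes, 1 member and 2 pathway genes. Cox4i2 was at -1.37 in blocked DESeq2 and -1.371 there with copies added. Blocked fits by edgeR and limma-voom changed no call among the members.

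Small changes turned sign. With libraries left out, blocked DESeq2 fits included, the change ran from -0.29 to 0.055 for Ndufa13, -0.063 to 0.30 for Atp5b, -0.16 to 0.044 for Atp5c1, -0.37 to 0.10 for Atp5g1, -0.003 to 0.23 for Atp5g3, -0.13 to 0.22 for Atp5h, -0.53 to 0.81 for Atp5l, -0.18 to 0.093 for Atp5s, -0.20 to 0.071 for Cox4i1, -0.57 to 0.11 for Cox7c, -0.001 to 0.32 for Cycs, -0.12 to 0.097 for Ndufa11, -0.04 to 0.14 for Ndufs1, -0.008 to 0.17 for Ndufs3, -0.066 to 0.068 for Sdha, -0.064 to 0.24 for Sdhaf1, -0.017 to 0.097 for Sdhaf2, -0.062 to 0.25 for Sdhb, -0.052 to 0.13 for Uqcrc1 and -0.26 to 0.11 for Uqcrh; the cause was not tested. With the same libraries left out Ndufa4 kept its sign, at 0.11 to 0.69. Unscaled totals gave 0.004 for Atp5c1, 0.020 for Atp5s and 0.020 for Cox4i1. Coding transcripts only gave -0.161 for Atp5j, 0.703 for Cox7c and -0.002 for Ndufa11. DESeq2 and RLE scaling gave -0.004 each for Sdha. Copies added gave 0.181 (edgeR) and 0.150 (blocked DESeq2) for Atp5g1. Where 1 library was left out, the spread was pooled over the remaining 5. Unscaled totals moved the members' median from 0.037 to 0.1.

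With 3 libraries a group, most members' intervals in edgeR without pairing reach past 1.3-fold. A 0 in a library allows 0.0586 to 0.0676 CPM. Members with near-identical copies, and short or non-coding transcripts that took most of a gene's counts, have less certain levels than their counts show.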
